A study of Mus musculus with 2 samples.

Results

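Tbx19 and Cartpt GABA neurons are inhibitory neurons that carry transcripts of the T-box factor Tbx19. They came from tissue of the mouse median eminence and neighbouring arcuate nucleus, and the position of single cells was not measured. They were picked cell by cell from single-cell RNA counts. A cell had to hold at least 1 Tbx19 UMI (unique molecular identifier, 1 counted transcript) and at least 1 UMI of Slc32a1, the vesicular GABA transporter. It also had to hold at least 5 CP10K (UMIs per 10000 UMIs of that cell) of Snap25, Stmn2 and Syt1 together, 3 neuronal genes. Cells rich in the peptides of other neuron types were left out. The upper limits were 10 CP10K for Pomc, Agrp and Sst and 5 CP10K for Ghrh and Trh. The same limit of 5 CP10K was set for Crabp1. These gates kept 233 of 7418 cells, 119 of 3479 in the control library and 114 of 3939 in the dHet library. Tbx19 and Slc32a1 are therefore present by choice, and every other level in these cells was read from the same cells, so their profile is a description with no test.

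The study sorted fluorescent living cells from the median eminence and neighbouring arcuate nucleus in CD-1 mice at postnatal day 10 and read their RNA in droplets with 10x 3′ chemistry. Control mice were Ins2-Cre;tdTomato+/-, in which Cre recombinase driven by the Ins2 promoter switches on the red reporter tdTomato. The dHet mice carried the same Cre and reporter and were in addition heterozygous for the homeobox genes Irx3 and Irx5 (Ins2-Cre;tdTomato+/-;Irx3/5+/-). Each genotype was 1 library made from 1 pool of 5 mice (the protocol text gives 5 to 6), so no test across animals was possible, and cells outside the Cre lineage were not sampled. Intervals below are 95% counting intervals and cover counting error only: exact Clopper-Pearson for shares, exact Poisson for levels and exact conditional binomial for ratios.

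The libraries differed in several measures before any gene was considered. Members of the class had a median of 25303 UMIs in control and 21536.5 in dHet, and mitochondrial transcripts made up 4.34% and 5.61% of their UMIs. A Y-linked transcript was seen in 54.6% of control members and 36.8% of dHet members, and Xist, which is transcribed from the inactive X, in 47.9% and 64.9%. The sex-linked make-up of the pools thus moved with genotype, and levels of some genes are also given by these transcripts. The share of the class among neurons and the remaining genes are given without this split. No member barcode occurred in both libraries, although 5 barcodes did among all deposited barcodes. Scrublet called 3 control members and 0 dHet members as doublets, and they were kept.

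As background, GABA neurons of the arcuate nucleus act on hunger, growth and reproduction through fast inhibition and through peptides. Tbx19 is best known as the factor that drives Pomc in pituitary corticotrophs. Cartpt encodes the precursor of CART, a peptide that reduces feeding. Hmx2 and Hmx3 are homeobox factors needed for several arcuate neuron types, Sstr1 is an inhibitory receptor for somatostatin, and Tg encodes thyroglobulin, the precursor of thyroid hormone in the thyroid gland. Immediate early genes such as Fos are switched on within minutes of cell activity, partly through the cyclic AMP response element (CRE), to which CREB binds.

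Promoter sequence is shown for Cartpt and for 3 immediate early genes whose levels differed between the libraries, because the CRE is a known element of such genes. The window searched was the 250 bases before the start annotated by RefSeq for GRCm38.p6, read 5′ to 3′ on the gene's strand. It is printed whole for Fos and Btg2. For Cartpt and Dusp1 only the element with 10 bases on each side is printed, since GENCODE places 250 and 47 bases of their windows in the 5′ untranslated region of a longer transcript. Capitals mark the full CRE TGACGTCA where the sequence held one, and otherwise the shorter TGACGT, which is part of it. Both strands were searched.
Cartpt element, chr13:99900778-99900805, minus strand: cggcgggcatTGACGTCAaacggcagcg
Fos promoter, chr12:85473640-85473889, plus strand: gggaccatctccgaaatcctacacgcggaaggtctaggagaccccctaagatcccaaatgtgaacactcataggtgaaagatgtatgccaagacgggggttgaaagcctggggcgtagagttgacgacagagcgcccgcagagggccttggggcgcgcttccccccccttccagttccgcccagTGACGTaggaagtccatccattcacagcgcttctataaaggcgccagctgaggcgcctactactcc
Btg2 promoter, chr1:134079156-134079405, minus strand: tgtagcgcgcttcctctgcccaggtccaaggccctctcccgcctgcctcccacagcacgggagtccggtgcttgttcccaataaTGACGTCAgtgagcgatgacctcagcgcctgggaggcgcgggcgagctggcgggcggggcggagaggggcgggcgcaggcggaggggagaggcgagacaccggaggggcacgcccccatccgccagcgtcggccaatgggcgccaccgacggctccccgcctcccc
Dusp1 element, chr17:26508598-26508625, minus strand: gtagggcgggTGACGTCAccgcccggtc
The full element began 112 bases before the start in Cartpt, 166 before it in Btg2 and 143 before it in Dusp1, and the short form 66 before it in Fos. These distances are from the RefSeq start, and the Cartpt element lies inside the longer GENCODE transcript. Of all 32851 promoters in the table, 508 (1.55%) held TGACGTCA and 2125 (6.47%) held TGACGT. Of the 12 genes looked up, 8 had an entry. Npas4 held the short form, and Junb, Tbx19 and Hmx3 held neither in this window. There was no entry for Ier2, Egr1, Tg and Sstr1. These matches describe letters only, and no binding was measured.

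The class stood on few Tbx19 molecules per cell. Exactly 1 Tbx19 UMI was found in 116 of the 233 members (49.8%), 2 UMIs in 68 and 3 or more in 49, with a maximum of 9. Of 313 Tbx19-positive cells in both libraries, the Crabp1 limit removed 28, the need for a Slc32a1 UMI 25 and the Trh limit 9, with the gates applied in turn. The highest members reached 4.50 CP10K of Crabp1 and 4.08 CP10K of Trh, and the nearest cells left out had 5.05 and 5.16. For Sst the values on either side of the limit were 6.20 and 11.0 CP10K, for Pomc 1.62 and 13.5, for Agrp 1.84 and 18.4 and for Ghrh 0.979 and 5.10. The lowest member had 7.79 CP10K of the 3 neuronal genes, and no otherwise eligible cell was below 5. A Tbx19 UMI was found in 0.494% of control and 0.113% of dHet cells below the neuron gate, whose median depth was 8246.5 and 7330.5 UMIs.

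Levels are given as CPM, the UMIs of a gene summed over a set of cells, divided by all UMIs of that set and scaled to a total of 1000000, control first and dHet second. Tbx19 (chromosome 1, 165137855-165160773 in GRCm38, minus strand) stood at 75.2 and 82.3 CPM in members. It was 0 by construction in the other GABA neurons, the 786 control and 1050 dHet cells that passed the same gates without a Tbx19 UMI, and 13.96 and 7.29 CPM in Crabp1 GABA neurons. Tg (chromosome 15, 66670753-66850721, plus strand) stood at 27.9 (22.3 to 34.5) and 29.1 (22.9 to 36.5) CPM, against 1.39 and 0.789 in other GABA neurons. Thyroglobulin transcripts were thus low in level, and members (28.5 CPM over both libraries) still ranked above every other gated class, with ependymal cells next at 5.28 CPM.

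Cartpt (chromosome 13, 99898489-99901091, minus strand) was the most abundant of the 5 marker genes, at 493 (468 to 518) CPM in control members and 421 (396 to 446) in dHet members. Other GABA neurons held 121 and 83.8 CPM. Over both libraries members (460 CPM) ranked behind Ghrh neurons (634) and ahead of Trh neurons (344) and Pomc neurons (229). Cartpt was spread very unequally: the median member had 0.477 CP10K, the highest 85.7, and 52 members had at least 5. The 5 richest cells held 30.1% of all Cartpt UMIs of the class. The gene in the name of this class is therefore a marker of some of its cells only.

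The remaining markers were found in more members at lower levels. Hmx3 (chromosome 7, 131542867-131544925, plus strand) stood at 70.2 (61.1 to 80.3) and 81.2 (70.5 to 92.9) CPM, against 33.1 and 35.3 in other GABA neurons. Members (75.2 CPM, 68.2 to 82.8, both libraries) and Crabp1 GABA neurons (72.7, 64.7 to 81.4) had overlapping intervals for this gene. Sstr1 (chromosome 12, 58211772-58214444, plus strand) stood at 96.5 (85.8 to 108) and 60.6 (51.4 to 70.9) CPM, against 25.2 and 18.6, and Sst neurons followed in level with 39.6. Hmx2, the neighbour and partner of Hmx3, stood at 47.3 and 57.1 CPM.

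A UMI of Hmx3 was found in 76.0% of members, of Sstr1 in 69.1%, of Cartpt in 56.7% and of Tg in 29.6%. Shares in the other GABA neurons were 27.9%, 22.9%, 19.4% and 1.36% in that order. In cells below the neuron gate, which were shallower (median 7752 UMIs against 23203 in members), they were 0.316%, 4.06%, 2.32% and 0.263%. After thinning each cell to 10000 UMIs, which left out 6 members and 255 other GABA neurons, the shares were 53.7% against 21.1% for Hmx3, 47.6% against 14.8% for Sstr1, 50.2% against 17.0% for Cartpt and 21.1% against 0.759% for Tg. All 4 markers were detected together in 32 members, 3 of them in 78, 2 in 67, 1 in 43 and none in 13. Tg was found in 40.9% of members with Cartpt and 14.9% of those without it. Deeper cells yield more of every gene, and the part of depth in this co-detection was not tested.

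Slc32a1, which the rule required, stood at 342 and 328 CPM. Gad1 and Gad2, the enzymes that make GABA and were not in the rule, stood at 255 and 272 and at 362 and 308 CPM. Gad1 was lower than in other GABA neurons (398 and 400 CPM). Slc17a6, the vesicular glutamate transporter, stood at 2.30 and 3.88 CPM in members and 23.1 and 21.9 in other GABA neurons. Both Gad genes were thus present and Slc17a6 was near 0. The 4 markers outside the rule (Tg, Cartpt, Hmx3 and Sstr1) stood above other GABA neurons in both libraries.

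Members were not 1 expression cluster. Clustering all cells of both libraries gave 35 clusters, and members fell into 12 of them. Cluster 4 held 135 members (57.9%; 69 control, 66 dHet) and was led by Tbx19, Tg, Sfrp1, Enox2, Pirt and Cartpt. Of its 274 cells, 143 had a Tbx19 UMI. Cluster 23, led by Nkx2-4, Ebf1, Trh and Gsx1, held 33 members (14 and 19). Cluster 1, led by Bcl11b, Pthlh, Hmgn5, Pou3f1 and Otp, held 28 (16 and 12). Cluster 19, led by Crabp1, Vgll3 and Htr3b, held 21 (9 and 12), and the last 16 (11 and 5) lay in 8 clusters. Leading genes of a cluster also shaped it, so they are named as its description.

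**Figure D1:**
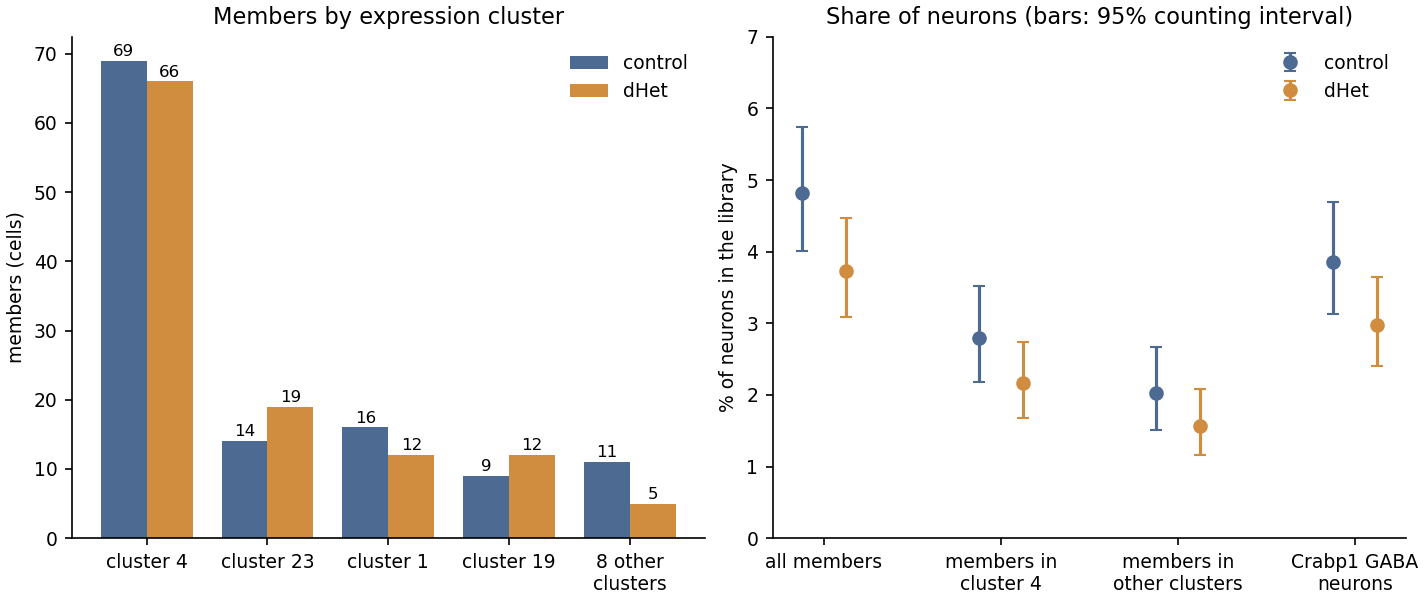
Left, members per expression cluster in each library (bars, number of cells). Right, share of neurons in percent with its 95% counting interval for all members, members in and outside cluster 4, and Crabp1 GABA neurons; cluster 4 holds 69 control and 66 dHet members, and each dHet point lies below its control point with overlapping intervals.

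The clusters split the 5 markers among themselves. In cluster 4, members held Tg at 48.9 CPM, Cartpt at 689, Hmx3 at 86.2 and Sstr1 at 103 over both libraries. All 32 members with 4 markers lay there. Members in cluster 23 kept Hmx3 (91.4 CPM) and Cartpt (414) but held little Tg (1.27) and Sstr1 (13.96). They were marked by Nkx2-4, a homeobox factor, at 510 CPM against 27.5 in cluster 4, by the activity-regulated factor Mef2c at 394 against 55.0, and by Cox6a2, a subunit of cytochrome c oxidase, at 382 against 44.8. Tbx3, a T-box factor of arcuate neurons, was at 0 CPM in cluster 23 and at 174 in cluster 4.

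Members in cluster 1 held little Cartpt or Tg and had Hmx3 at 42.1 CPM, against 86.2 in cluster 4. Cartpt stood at 3.51 CPM and Tg at 3.51, while Sstr1 (80.6) was near its level in cluster 4. Otp, a factor of neuroendocrine neurons, reached 380 CPM there against 15.2 in cluster 4. Pthlh, a parathyroid hormone-like peptide, reached 138 against 2.21, and Bcl11b, a zinc-finger factor, 106 against 0.632. Rprm stood at 392 CPM against 163 and the orphan receptor Gpr101 at 245 against 116.

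In cluster 19, members held Crabp1, a retinoic acid-binding protein, at 184 CPM, each cell being under the gate. Vgll3, a transcriptional cofactor, stood at 146 CPM and the serotonin receptor subunit Htr3b at 67.8, against 13.0 and 0.632 in cluster 4. Tg was at 0 and Cartpt at 151. Cluster 4 also held cells without a Tbx19 UMI, 70 in control and 61 in dHet, which are not members. They had Cartpt at 253 CPM, Tg at 11.2, Hmx3 at 60.6 and Enox2 at 99.7, between members and other GABA neurons. The gate of 1 Tbx19 UMI thus ran through cluster 4.

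**Figure D2:**
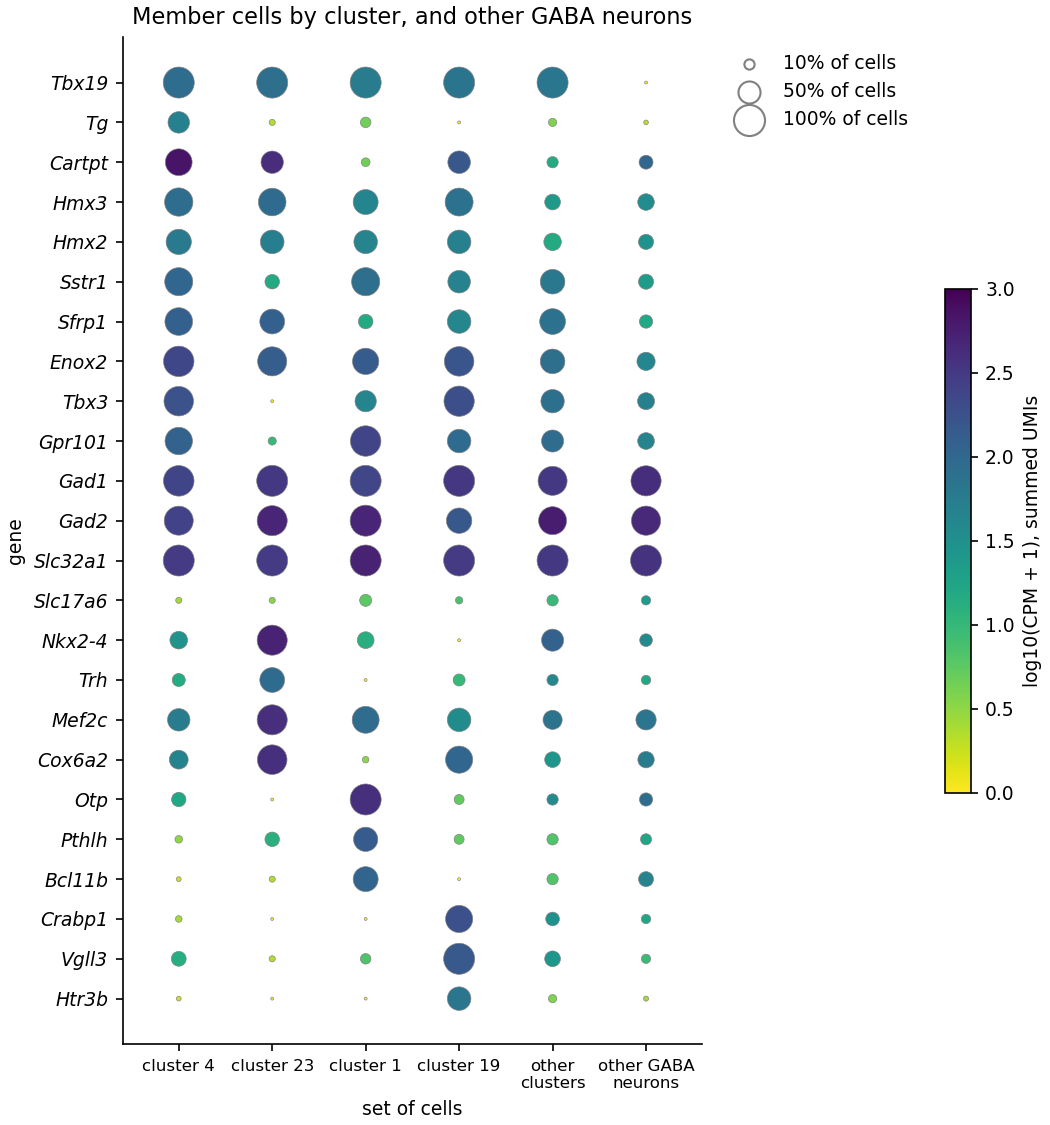
Level (colour, log10 of CPM + 1) and share of cells with a UMI (circle area) of 24 genes in members by cluster and in other GABA neurons, both libraries together. Tg and the highest Cartpt level (689 CPM) sit in cluster 4, Nkx2-4 and Mef2c in cluster 23, Otp and Bcl11b in cluster 1, and Crabp1 and Vgll3 in cluster 19.

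Beside the markers, the class was set off from other GABA neurons by signalling and guidance genes. Among 9057 genes with at least 50 UMIs in members, 158 (1.74%) were at least 1.5-fold higher in members and 157 (1.73%) at least 1.5-fold lower, on log2 ratios with 5 CPM added to each side. Sfrp1, a secreted Wnt antagonist, was 2.35 higher on the log2 scale, at 94.2 and 99.8 CPM against 17.1 and 13.1. Enox2, a cell-surface oxidase, was 2.04 higher, at 174 and 199 CPM against 40.1 and 42.7. Both libraries showed each of these differences, as did all 20 genes of the highest rank plotted with them.

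The other genes at the top of that ranking included cell-surface sugar and matrix proteins, Ust (1.93), which sulphates dermatan, and the glypican Gpc3 (1.52). Ncam2, an adhesion molecule, was 1.10 higher and Fam19a2, a secreted chemokine-like protein, 1.28 higher. Gpr101 was 1.34 higher, and so were the annexin Anxa5 (1.07) and the adenylyl cyclase Adcy2 (1.07). Transcription factors at the top were Nkx2-4 (1.29), Trps1 (1.26), Tbx3 (1.24) and the homeodomain-only protein Hopx (1.16). These are differences from other GABA neurons as 1 set, and single classes could stand higher. Tbx3 was at 177 and 173 CPM in Crabp1 GABA neurons against 129 and 120 in members, and at 252 in Pomc neurons over both libraries. Gpr101 was at 180 CPM in Sst neurons against 117 in members. For Nkx2-4, which marks cluster 23, the value was -0.34 among members of cluster 4.

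The lowest gene against other GABA neurons was Npy, the hunger peptide of Agrp neurons, at -3.46 on the log2 scale against other GABA neurons, with the Agrp limit applied to both sets. Lhx1 was -2.97, its antisense transcript Lhx1os -2.52, Zfhx3 -2.68, Zfhx4 -2.32, Rora was -2.60 and Six6 was -2.0003. All of these except Npy and Lhx1os encode transcription factors, and each was low in both libraries. Whether the 3′ counting told Lhx1 and Lhx1os apart was not given in the sources used here.

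**Figure D3:**
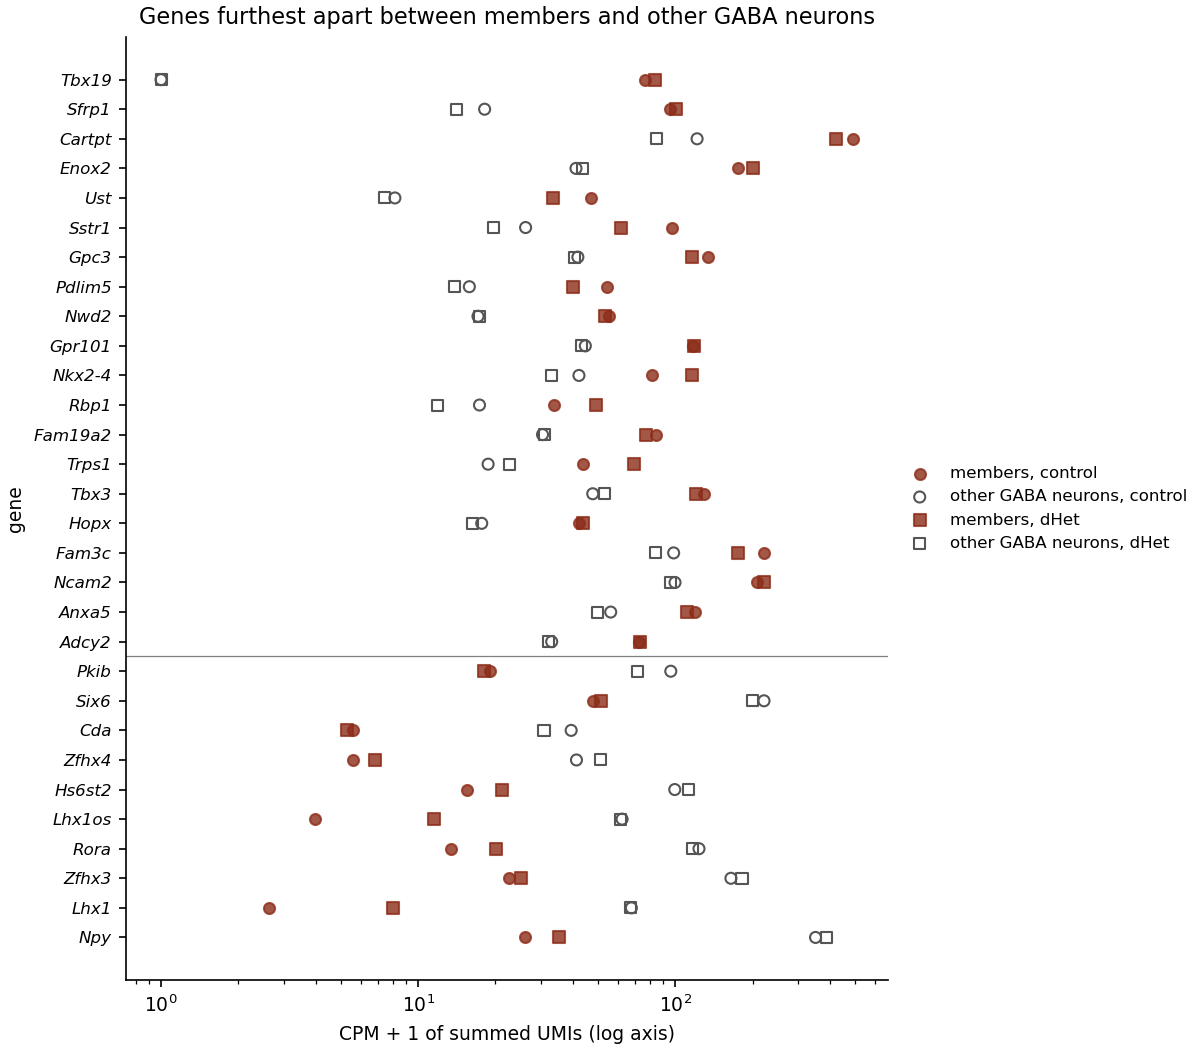
CPM + 1 (log axis) of the 20 genes highest and 10 lowest in members against other GABA neurons, filled for members and open for other GABA neurons, circles for control and squares for dHet. Filled and open symbols are on opposite sides for every gene in both libraries, with Sfrp1 near 94.2 and 99.8 CPM in members; the genes were chosen for this difference.

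Gene lists place the class among GABA neurons. Of 31 hypothalamic transcription factors with at least 50 UMIs, 6 were at least 1.5-fold above other GABA neurons and 10 below, beside 1.74% and 1.73% of all 9057 genes; the same shares stand beside the list counts that follow. The 6 were Hmx3 (1.03), Hmx2 (0.74), Tbx3, Nkx2-4, Lmo3 (0.76) and Nkx2-1 (0.60), the last being the factor that patterns the ventral hypothalamus. Below were Six6, Dlx5 (-0.79) and Dlx6 (-1.002), factors of forebrain GABA neurons, Pou2f2 (-1.40), Sox2 (-1.44) and 5 others. Of 17 other neuropeptide genes, a list without Cartpt, 0 were above and 6 were below: Npy, Tac2 (-2.80), Tac1 (-2.75), Penk (-2.12), Cck (-1.10) and Gal (-1.06). Cartpt itself was 2.13 higher. Pcsk2, which cuts peptide precursors, was -1.87.

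Receptors and channels held a small set of differences. Of 12 peptide receptor genes, Sstr1 and Crhr2 (1.37), a receptor for urocortins, were above and the calcitonin receptor Calcr (-1.76) below. The adrenergic receptor Adra2c was 1.00 higher. Among ion channel genes, the GABA-A receptor subunit Gabra5 was 0.80 higher, the potassium leak channel Kcnk2 0.77 higher and the calcium channel subunit Cacna2d2 0.76 higher, whereas Cacna2d1 was -1.52. Of 14 circadian clock genes, 0 were above and 3 below, Rora, Rorb (-1.04) and Hlf (-0.71).

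The share of the class among neurons was lower in the dHet library. Members made up 4.82% (4.01 to 5.74) of 2467 control neurons and 3.73% (3.09 to 4.47) of 3053 dHet neurons, a ratio of 0.774 (0.593 to 1.01). The interval of the ratio reached 1, so counting error alone could cover the difference. Of all cells the shares were 3.42% and 2.89%, ratio 0.846 (0.649 to 1.10), and of Slc32a1-positive neurons 8.07% and 5.95%, ratio 0.737 (0.565 to 0.961). Neurons themselves were 70.9% of control cells and 77.5% of dHet cells.

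The ratio was alike inside and outside the leading cluster, at 0.773 (0.543 to 1.10) for members in cluster 4 and 0.776 (0.511 to 1.18) for the others. Cluster 4 as a whole, with or without Tbx19, made up 5.88% and 4.23% of neurons, ratio 0.719 (0.563 to 0.918). Crabp1 GABA neurons had a ratio of 0.774 (0.574 to 1.04), and other GABA neurons 1.08. Any Tbx19 UMI was found in 6.77% of control neurons and 4.59% of dHet neurons, ratio 0.677 (0.537 to 0.853). Members were shallower in dHet by the medians given above, and a gate on 1 UMI depends on depth. With every cell thinned to 10000 UMIs before the gates were applied, 61 control and 60 dHet members were left and the ratio was 0.781 (0.538 to 1.13).

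Gene levels in members were close between the genotypes for most genes. Of 4727 genes with 200 or more UMIs in all members, 7 (0.148%) were at least 1.5-fold higher in dHet and 27 (0.571%) at least 1.5-fold lower. The lower count includes the Y-linked gene Eif2s3y and Cga, a value of 1 cell. With Eif2s3y, 3 lower genes and 1 higher gene fell under the naming exclusions given below. Of 9057 genes with at least 50 UMIs, the base for gene lists, 61 (0.674%) were higher and 151 (1.67%) lower. The median log2 ratio was -0.03 over the first set and -0.04 over the second. Of the 27 lower genes, 26 were also lower in other GABA neurons, 10 of them past the fold. Of the 7 higher genes, 5 were also higher there, 1 of them past the fold. Other GABA neurons come from the same libraries, so their values are given beside those of members for many genes below and are no independent check.

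**Figure D4:**
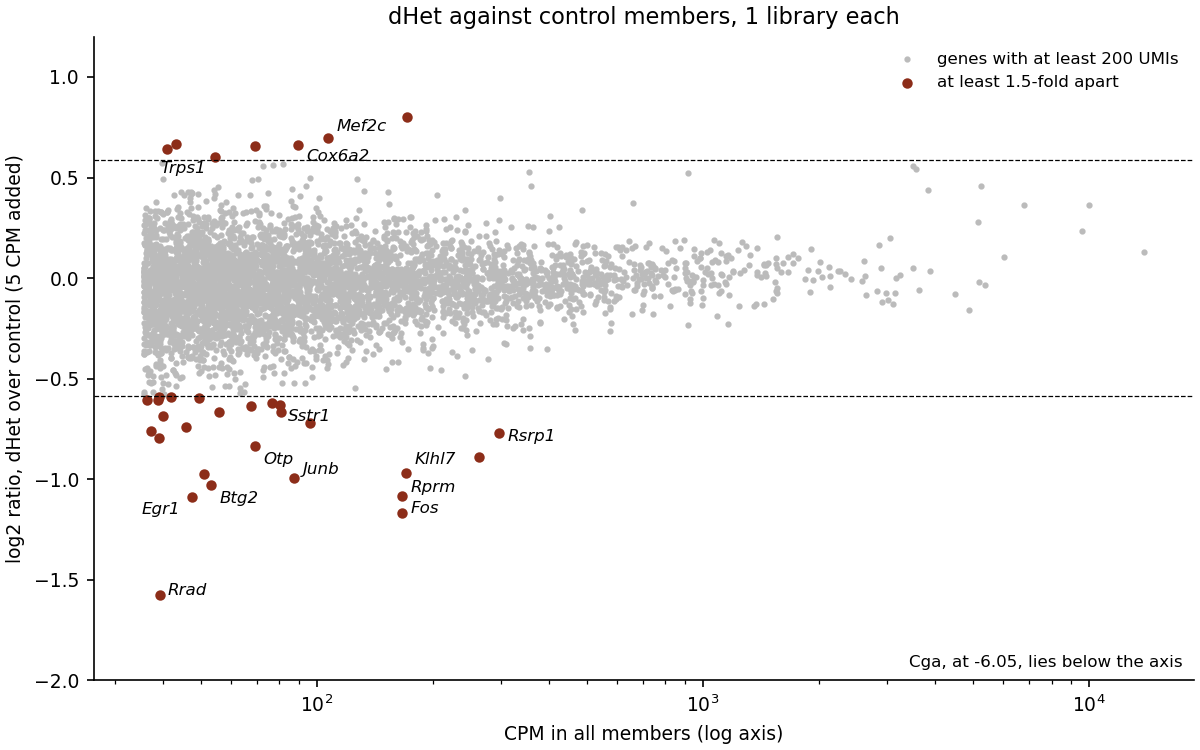
Log2 ratio of dHet over control (5 CPM added) against CPM (log axis) for the 4727 genes with at least 200 UMIs in members, 1 library per genotype. Dark points are at least 1.5-fold apart (7 above, 27 below the dashed lines); Fos, Egr1, Btg2 and Junb are among the lowest, and Cga, from 1 cell, lies below the axis.

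The targeted genes gave no check of the genotype in this class. Irx3 had 2 UMIs in control members and 0 in dHet members, and Irx5 had 0 in both. At these depths the floor of 3 UMIs was 0.985 CPM in control and 1.16 CPM in dHet, so both genes were at or under it. Irx1, Irx4 and Irx6 had no UMI either, and Irx2 had 1 in control.

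Of the 5 markers, Sstr1 was past the fold, at 96.5 and 60.6 CPM (log2 -0.63, ratio 0.628, 0.514 to 0.765). A UMI of it was seen in 76.5% of control and 61.4% of dHet members, and after thinning in 56.5% and 38.4%. In other GABA neurons the ratio was 0.738 (0.641 to 0.849). It was 0.681 (0.537 to 0.858) among members in cluster 4 and 0.559 (0.376 to 0.822) outside it, but 0.972 (0.635 to 1.48) in the cells of cluster 4 without Tbx19. Among members with Xist and no Y-linked UMI (51 control, 70 dHet) the ratio was 0.532 (0.406 to 0.694), and among those with a Y-linked UMI and no Xist (59 and 38) it was 0.769 (0.553 to 1.06).

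Cartpt was slightly lower in dHet, ratio 0.854 (0.789 to 0.924), but its direction depended on the cells taken. The ratio was 0.605 in Xist members (679 and 411 CPM) and 1.44 in Y-gene members (340 and 488). In cluster 4 it was 0.754 and outside it 2.21 (104 and 229 CPM). Outside cluster 4 the rise lay in cluster 23, with 95 and 231 UMIs and a ratio of 1.83 (1.44 to 2.36). Cluster 19 had 0.953 (0.577 to 1.59), cluster 1 had 3 and 0 UMIs, and the remaining clusters 5 and 0. A few cells carry most of its UMIs, 41.5% in the 5 richest control cells and 43.0% in the 5 richest dHet cells. Tg and Hmx3 were close, with 29.1 against 27.9 CPM and 81.2 against 70.2 in dHet and control.

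Immediate early genes were the leading group among the lower genes. Of 18 with at least 50 UMIs, 15 were below control and 3 above, beside 5229 below and 3827 above of all 9057 genes. Of the 18, 7 were past the fold, all lower, beside the 1.67% of all genes given above. The median log2 ratio of the 18 was -0.39 against -0.04 over all genes, and -0.37 for the same genes in other GABA neurons. The medians of members and other GABA neurons were thus close. Genotype, pool of mice and library cannot be told apart here.

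Fos (chromosome 12, 85473890-85477273, plus strand) had 684 UMIs in control members and 250 in dHet members, 224 (208 to 242) against 97.1 (85.4 to 110) CPM. Junb, an AP-1 partner of Fos, stood at 115 and 55.1 CPM (350 and 142 UMIs). Egr1, a zinc-finger factor, stood at 64.3 and 27.6 CPM (196 and 71 UMIs). All 3 had control above dHet, with log2 ratios of -1.17, -0.995 and -1.09. Btg2 (chromosome 1, 134075170-134079120, minus strand), an antiproliferative gene with the full CRE shown above, stood at 70.9 and 32.2 CPM, log2 -1.03. Npas4, a neuronal activity factor, had 137 and 28 UMIs (log2 -1.65), the phosphatase gene Dusp1 93 and 43 (-0.71) and Ier2 46 and 17 (-0.79). The transcripts were held by few cells: 5 cells had 29.1% of control and 50% of dHet Fos UMIs, 34.7% and 31.0% of those of Egr1, 26.9% and 34.9% of Btg2 and 25.1% and 36.6% of Junb. Fos, Egr1, Btg2 and Junb also stood in members below 10% of their level in pituitary cells (2740, 1200, 1151 and 1577 CPM), the mark set here for possible free RNA. In cells below the neuron gate Fos was at 881 CPM in control and 449 in dHet, so the level outside the class moved with genotype too. The part of free RNA in the difference was not tested.

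Summed over the 7 genes, members had 565 CPM in control and 246 in dHet, ratio 0.436 (0.397 to 0.477). Other GABA neurons had 562 and 224, ratio 0.398. The ratio was 0.453 in members of cluster 4 (711 and 322 CPM), 0.433 outside it (362 and 157) and 0.528 in cells of cluster 4 without Tbx19 (874 and 461). Cells of cluster 4 therefore had more of these transcripts in both libraries. Per cell, the median sum was 2.11 CP10K in control and 0.760 in dHet. No UMI of any of the 7 was found in 21.0% of control members and 31.6% of dHet members. At least 3 of the 7 were found in 50.4% (41.1 to 59.7) and 30.7% (22.4 to 40.0), and in 47.3% and 27.3% of other GABA neurons. No class here lacks these genes, so no background share from free RNA can be set beside these values, and they are not read as expression per cell. The sum was chosen from the genes past the fold, so it describes them and adds no support.

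The ratio was lower in members with Xist. Their summed level was 872 CPM in control and 252 in dHet, ratio 0.289 (0.257 to 0.323). In members with a Y-linked UMI it was 230 and 201, ratio 0.874 (0.722 to 1.05). Other GABA neurons showed the same split, with 744 and 215 CPM (ratio 0.289) in Xist cells and 303 and 260 (ratio 0.859, 0.802 to 0.921) in Y-gene cells. The control Xist cells were the highest set in both classes. For Fos alone the ratio was 0.306 (0.258 to 0.363) in Xist members and 0.661 (0.456 to 0.943) in Y-gene members. Btg2 (0.227 and 1.18), Egr1 (0.257 and 1.43) and Dusp1 (0.394 and 1.10) were above 1 in Y-gene members, with intervals that reached below 1. The labels used here give no sex for the pooled mice, and whether the genotype ratio differs between the subsets was not tested.

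**Figure D5:**
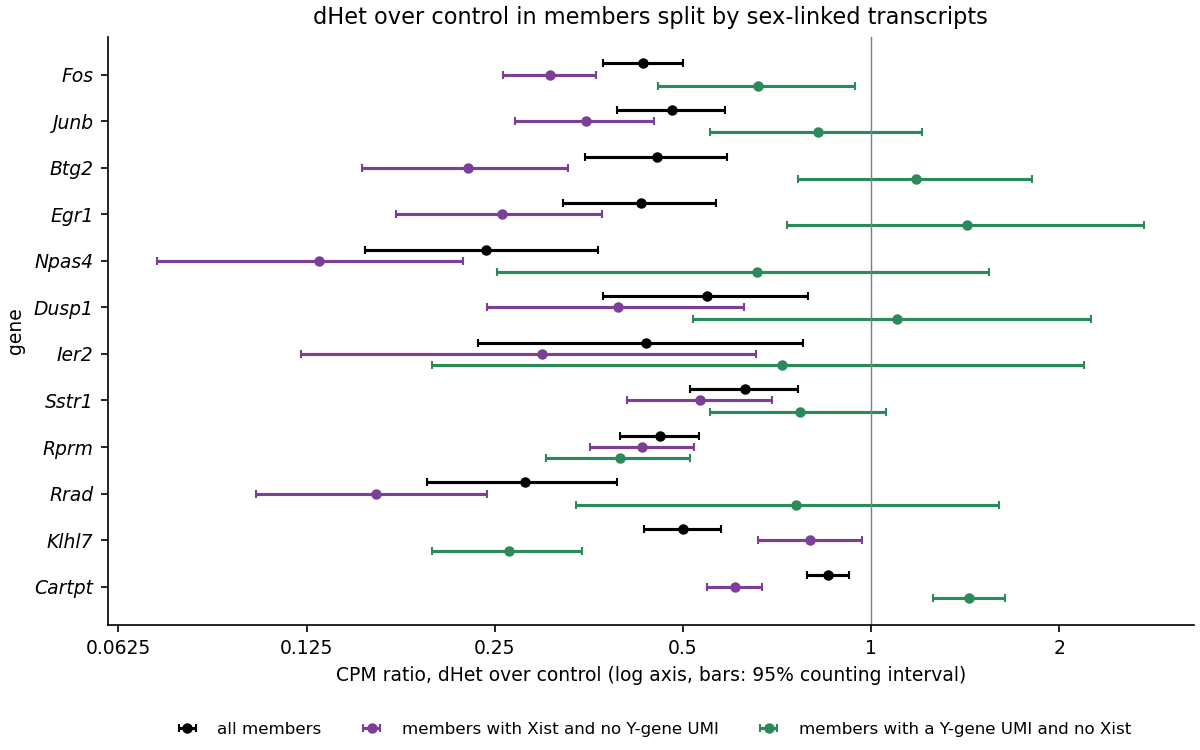
CPM ratio of dHet over control (log axis) with its 95% counting interval for 12 genes in all members, in members with Xist and no Y-gene UMI, and in members with a Y-gene UMI and no Xist. For Fos the 3 ratios are 0.432, 0.306 and 0.661; for Klhl7 the order is turned, 0.799 in Xist and 0.264 in Y-gene members.

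Other genes that were lower in dHet members showed other patterns. Klhl7 (chromosome 5, 24100605-24160792, plus strand), an adaptor of a ubiquitin ligase, stood at 221 and 111 CPM, ratio 0.500 (0.434 to 0.575). Its ratio in other GABA neurons was 0.735 (0.691 to 0.782). The ratio was 0.799 (0.660 to 0.967) in Xist members and 0.264 (0.198 to 0.345) in Y-gene members, opposite in order to the immediate early genes. It was 0.507 in cluster 4, 0.505 outside it and 0.612 in cells of cluster 4 without Tbx19. Rsrp1 stood at 367 and 213 CPM, ratio 0.581 (0.523 to 0.643), with 0.655 (0.632 to 0.678) in other GABA neurons. Zdhhc21, a palmitoyl transferase, stood at 46.9 and 25.6 CPM (log2 -0.76), with -0.01 in other GABA neurons. Chordc1, a co-chaperone, stood at 118 and 69.9 CPM, and Ost4, Arpc4, Pdrg1, Sdad1, Prmt5, Coq5 and Mpp2 were between -0.67 and -0.59 on the log2 scale. Other GABA neurons had log2 ratios of -0.54 for Chordc1 and Pdrg1, -0.32 for Ost4 and -0.37 for Arpc4. They had -0.28 for Sdad1, -0.25 for Prmt5, -0.13 for Coq5 and 0.025 for Mpp2.

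Some differences varied in size between clusters or rested on few cells. Rprm, a p53 target, stood at 221 and 102 CPM, with ratios of 0.431 in Xist and 0.396 in Y-gene members, 0.655 in cluster 4 and 0.281 outside it. Otp stood at 87.6 and 47.0 CPM, with 0.833 in cluster 4 and 0.462 outside, and it marks cluster 1, which held 16 control and 12 dHet members. Within cluster 1 the Otp ratio was 0.707 (0.553 to 0.899). Rrad, a small GTPase, stood at 58.4 and 16.3 CPM, but 5 control cells held 56.2% of its control UMIs. Among the higher genes, Mef2c stood at 82.0 and 136 CPM and Cox6a2 at 69.2 and 113. Both mark cluster 23, which held 14 control and 19 dHet members. Within cluster 4 their values were a ratio of 1.24 (0.912 to 1.69) for Mef2c and a log2 ratio of -0.21 for Cox6a2. Within cluster 23 the ratio was 1.61 (1.26 to 2.06) for Mef2c and 1.52 (1.19 to 1.95) for Cox6a2. The part of cluster make-up in these differences was not tested. Log2 ratios in other GABA neurons were -0.51 for Rprm, -0.01 for Otp, -0.68 for Rrad, 0.08 for Mef2c and -0.34 for Cox6a2. In Otp, 5 cells held 42.3% of the control UMIs and 59.5% of the dHet UMIs. These 5 genes lay outside the rule for genotype differences and are named because their values stood out.

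The higher genes within the rule were few. Trps1, a GATA-type repressor high in the class, stood at 43.0 and 67.9 CPM, ratio 1.58 (1.25 to 1.998), with 1.78 in Xist and 1.31 (0.895 to 1.92) in Y-gene members. Ddx3x, an X-linked RNA helicase, stood at 53.5 and 87.4 CPM, ratio 1.63 (1.33 to 2.01), with 1.52 (1.15 to 2.03) in Xist and 1.84 (1.32 to 2.57) in Y-gene members. The nuclear pore gene Ranbp2 stood at 31.5 and 52.0 CPM, and Acot13, a thioesterase, at 32.8 and 55.1. Ratios in other GABA neurons were 1.22 for Trps1, 1.22 for Ddx3x, 1.01 for Ranbp2 and 0.970 for Acot13. The rest of the 15 highest genes under the rule lay between 0.44 and 0.57 on the log2 scale, below the fold.

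Most functional groups showed few or no genes past the fold between the genotypes, beside 0.674% higher and 1.67% lower of all 9057 genes. At these shares lists of 19 to 40 genes would hold few or none, so a count of 0 sets no group apart. Of 19 GABA receptor, 20 glutamate receptor, 28 potassium channel and 28 sodium and calcium channel genes, 0 were past it in either direction. The same held for 23 secretory pathway genes, 40 synaptic adhesion genes and 20 cholesterol synthesis genes. Of the cholesterol genes 17 were below control and 3 above, with a median of -0.11 against 0.05 in other GABA neurons. Of all 9057 genes with at least 50 UMIs, 5229 were below control and 3827 above. Among 31 transcription factors 0 were higher and 3 lower, beside 1.67% of all genes: Otp, Nr2f2 (23.3 and 8.54 CPM) and Bcl11b (21.7 and 11.6). Bcl11b marks cluster 1, as Otp does.

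Stress and hormone genes were mixed, beside shares over all 9057 genes of 0.674% higher and 1.67% lower. Of 15 heat shock genes, 3 were lower past the fold, Hspa1a (38.1 and 17.9 CPM), Hspa1b (25.6 and 10.5) and Chordc1. Hspa1a and Hspa1b are near-identical copies whose reads may be split between them. Of 13 glucocorticoid and fasting responsive genes, 1 was higher, the cell cycle inhibitor Cdkn1a (20.3 and 34.2 CPM). Of 21 hormone receptor and signalling genes, 1 was lower, the phosphatase gene Ptpn2 (17.4 and 8.93 CPM). Lepr, the leptin receptor, had 22 and 8 UMIs, too few for the list. Of 12 peptide receptor genes, Sstr1 and Calcr (11.8 and 5.44 CPM) were lower. Of the 17 neuropeptide genes other than Cartpt, Penk (17.7 and 8.93 CPM) and Cck were lower, Cck through 1 cell.

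That cell was a control member in cluster 28, called a doublet, with 26950 UMIs. It held 1148 of the 1154 Cga UMIs of control members, together with 28 Tshb, 18 Pitx1 and 452 Chga UMIs and 87 of the 93 Cck UMIs. Cga and Tshb encode the subunits of thyrotropin, a hormone of pituitary and pars tuberalis cells. Cga (379 and 0.777 CPM) is therefore a value of 1 cell.

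Transcripts of other cell types were found in members at low summed levels, some above and some below other GABA neurons. Astrocyte markers summed to 184 CPM in control and 155 in dHet members (181 and 225 in other GABA neurons). Tanycyte markers summed to 68.9 and 74.2 (98.9 and 105), and oligodendrocyte markers to 120 and 86.6 (92.9 and 95.03). Precursor markers, at 35.4 and 16.3 CPM, were above other GABA neurons (9.21 and 12.4). All 8 microglia markers were at 0 in members of both libraries. Endothelial markers, at 21.7 and 19.03 CPM, were below them (48.1 and 51.9). Pituitary markers, at 826 and 315 CPM against 337 and 334, included the Cga cell. The part of these transcripts in the genotype differences was not tested.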

How the data were processed

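Viable tdTomato-positive cells were profiled in 2 libraries, 1 per genotype. The authors aligned and counted reads with Cell Ranger 3.0.2, per the file headers, on mm10, per the submitters' processing notes. Deposited values are raw UMI counts. The table of both libraries (20210 genes) chose the cells and gave every level; genes outside it held 0.0533% of control and 0.0540% of dHet UMIs.

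UMIs were summed over members per library (3047047 control, 2575438 dHet), scaled to CPM, and compared as log2 ratios with 5 CPM added; 1.5-fold was the size looked for. With 1 library per genotype no p-value exists. Cells were clustered with scanpy 1.11.5 (2000 variable genes, 30 components, 15 neighbours, Leiden resolution 1), and Scrublet used an expected rate of 4%. Python 3.11.15, numpy 2.4.6, scipy 1.17.1, pandas 2.3.3 and matplotlib 3.10.9 were used. Scripts were tested on simulated data.

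Named genes were the 5 markers, the 20 highest and 10 lowest against other GABA neurons and the 15 highest and 15 lowest between genotypes. Up to 6 genes per list, Irx3 and Irx5 were added. Genes ranked between genotypes needed at least 200 UMIs and at most 25% of a library's UMIs in 5 cells. Mitochondrial, ribosomal, Y-linked, unnamed and possible free-RNA genes, Xist and Tsix were left out of both rankings. Other X-linked genes, Ddx3x among them, were not left out. The free-RNA limit (under 10% of the level in another class) was not applied to the genes lowest against other GABA neurons, which meet it by being low. Others were named after their values were seen. Members and lists were chosen with earlier results of these data known. Alternatives are given in the closing section.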

Additional observations from a re-analysis of the deposited data

Results flagged for a closer look

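In 8 of 70 genes looked at, the ratio of dHet over control lay on opposite sides of 1 in members with Xist and in members with a Y-linked transcript, with neither counting interval reaching 1. The difference between the subsets was not tested, and with 1 pool per genotype it could not be. Fosb had a ratio of 0.379 in Xist members and 3.45 in Y-gene members, on 6 and 12 UMIs in the latter. Jun had 0.403 and 1.62, and Jund had 0.890 and 1.40. Cartpt had 0.605 and 1.44, Lhx2 had 0.566 and 2.07, and Hmgn5 had 0.760 and 1.43. Sfrp1 turned the other way, with 1.66 and 0.618, as did Ebf1 with 10.3 and 0.150, the last on 1 against 12 and 23 against 2 UMIs.

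Cartpt also lay on opposite sides of 1 by cluster, with a ratio of 0.754 in members of cluster 4 and 2.21 in the other members. This difference was not tested either.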

How the results depend on the processing

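The share ratio stayed below 1 under all its alternatives, from 0.693 to 0.846. Numbers of genes past the fold moved more. Against 7 higher and 27 lower genes, a 2-fold limit gave 0 and 6, a minimum of 50 UMIs gave 61 and 151, a minimum of 500 UMIs gave 3 and 7, and a pseudocount of 20 CPM gave 2 and 13. The higher count was 11 with a pseudocount of 1 CPM and 12 after centring on the median gene, and the lower count was 17 after thinning to 10000 UMIs. In subsets chosen after seeing the data, the higher count was 22 in Xist cells, 12 in Y-gene cells and 11 outside cluster 4. Fewer cells or transcripts enter the subsets and the thinned table; the cause of the other shifts was not tested.

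Of 1352 gene values recomputed over 25 alternatives, 10 that had been past the fold changed sign. A further 30 values of 13 genes changed sign between genotypes without having been past the fold, among them Cartpt (to 1.11 outside cluster 4), Nkx2-4 (to -0.37 in cluster 4) and Sfrp1 (to -0.66 in Y-gene cells). Of the 10, Lhx1 turned to -0.038 with at least 2 Tbx19 UMIs, -0.15 in cluster 4 and -0.50 in Y-gene cells. Lhx1os turned to -0.15 and Cox6a2 to -0.21 in cluster 4. Egr1 turned to 0.40, Btg2 to 0.21 and Dusp1 to 0.10 in Y-gene cells. Against other cells, Nkx2-4 turned to -0.34 in cluster 4, and Gad1 to 0.17 against all other neurons. The cause was not tested. No paired analysis was possible because each genotype was 1 library. At this depth a gene under 3 UMIs cannot be told from 0.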
